A study of Sus scrofa with 12 samples.

Results

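Glycolysis turns glucose into pyruvate and lactate, and male germ cells run part of it with enzymes that other cells do not make. The genes described here are the 3 hexokinases HK1, HK2 and HK3 and the somatic and germ-cell forms of later enzymes, namely GAPDH and GAPDHS, PGK1 and PGK2, and LDHA, LDHB and LDHC. They were chosen by symbol in the deposited table of coding genes, which gave 11 of its 21674 genes for 10 symbols, since LDHB stands on 2 rows. The longer of these is on chromosome 5 and is called LDHB here, and the shorter is on chromosome 2 and is called the LDHB copy.

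Testis RNA came from 12 boars of the breeds Hezuo (HZ) and Landrace (LC), with ribosomal RNA removed before sequencing. The testes were taken by castration, and both breeds were kept in the same conditions. Group Ha held HZ boars of 30 days, Hb held HZ boars of 120 days, La held LC boars of 30 days and Lb held LC boars of 120 days. Each group had 3 boars with 1 library each, the ages were sampled in different animals, and a library is named by its group and replicate, such as Hb2. The study looks at early puberty in HZ boars, immature at 30 days and mature at 120 days, with LC boars as the control. Estimated counts per library came to between 22538417 and 23758931 in Ha, 17165519 and 22707568 in Hb, 18523274 and 23563949 in La, and 18998959 and 23253496 in Lb.

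Hexokinases trap glucose in the cell by phosphorylating it, GAPDH and PGK carry out the following oxidation and the first ATP-forming step, and LDH interconverts pyruvate and lactate. Germ cells in and after meiosis switch to isoforms of their own: PGK2 is an intronless copy of the X-linked PGK1, whose chromosome is silenced in meiosis, GAPDHS is anchored in the fibrous sheath of the sperm tail, and LDHC is the lactate dehydrogenase of spermatocytes and sperm. Sertoli cells supply lactate to the germ cells around them.

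From 30 to 120 days in HZ testes, GAPDHS, PGK2, LDHC and HK1 rose and GAPDH, PGK1 and LDHA fell. The same 3 germ-cell isoforms rose in LC testes, together with HK1 and HK2, while HK3 and LDHA fell. GAPDH and PGK1 in LC and LDHB in both breeds were also lower at 120 days, under the fold threshold. A gene was called at an edgeR adjusted p under 0.05 with an absolute log2 fold change over 1, and fold changes are the second group over the first. In Ha vs Hb, 7 of 11 tested members were called, where 51.4% of all tested genes were, with 4 rises (28.2% of all genes) and 3 falls (23.2%). In La vs Lb, 7 of 10 tested members were called, where 47.6% of all genes were, with 5 rises (27.5%) and 2 falls (20.1%). Shares of 63.6% and 70% among so few genes are not read as a result about the set, and the account rests on the values of single genes. In bulk samples, fewer cells of a type and less RNA per cell cannot be told apart.

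Fewer members were called between breeds at the same age than with age. At 30 days this rests largely on the fold threshold. Without that threshold, 8 members were called at 30 days and 4 at 120 days, beside 9 with age in HZ and 10 in LC. No share of all genes is given for these counts. Of 10 members tested in Ha vs La, 2 were called, HK2 and the LDHB copy, both lower in LC (7.62% of all genes were called, 3.6% higher and 4.01% lower). Of 11 tested in Hb vs Lb, 2 were called, GAPDHS and the LDHB copy, again lower in LC (3.85% of all genes, 2.65% higher and 1.2% lower). Both calls at 120 days were lost without Lb2, and that of the LDHB copy also without Hb3, Lb1 or Lb3. Whether the change with age differed between breeds was tested as an interaction, LC change minus HZ change, and 2 of 11 members passed, HK1 and HK2, where 5.14% of all genes did. Exact permutation of 3 libraries against 3 reaches no p below 0.1, so each p given rests on the spread that edgeR models across all genes.

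Directions of the called members held under each scaling tried, but the scaling moves all genes. With library totals in place of TMM the median log2 fold change of all genes moved by −0.30 with age in HZ, −0.17 with age in LC and 0.15 in the interaction. With limma on log2(FPKM + 0.1) it moved by −0.45, −0.28 and 0.16, and by 0.11 in Hb vs Lb. With limma on log2(FPKM + 1) the shifts with age were −0.26 in HZ and −0.17 in LC. The share of rises among all calls in Ha vs Hb was 54.8%, and 44.1%, 38.5% and 42.3% with those settings. In La vs Lb it was 57.7%, and 46.1% with limma on log2(FPKM + 0.1). Between breeds at 120 days it was 68.8%, and 79.7% and 80.0% with limma on log2(FPKM + 1) and log2(FPKM + 0.1), and in the interaction it was 68.4%, and 81.6% with library totals.

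**Figure D1:**
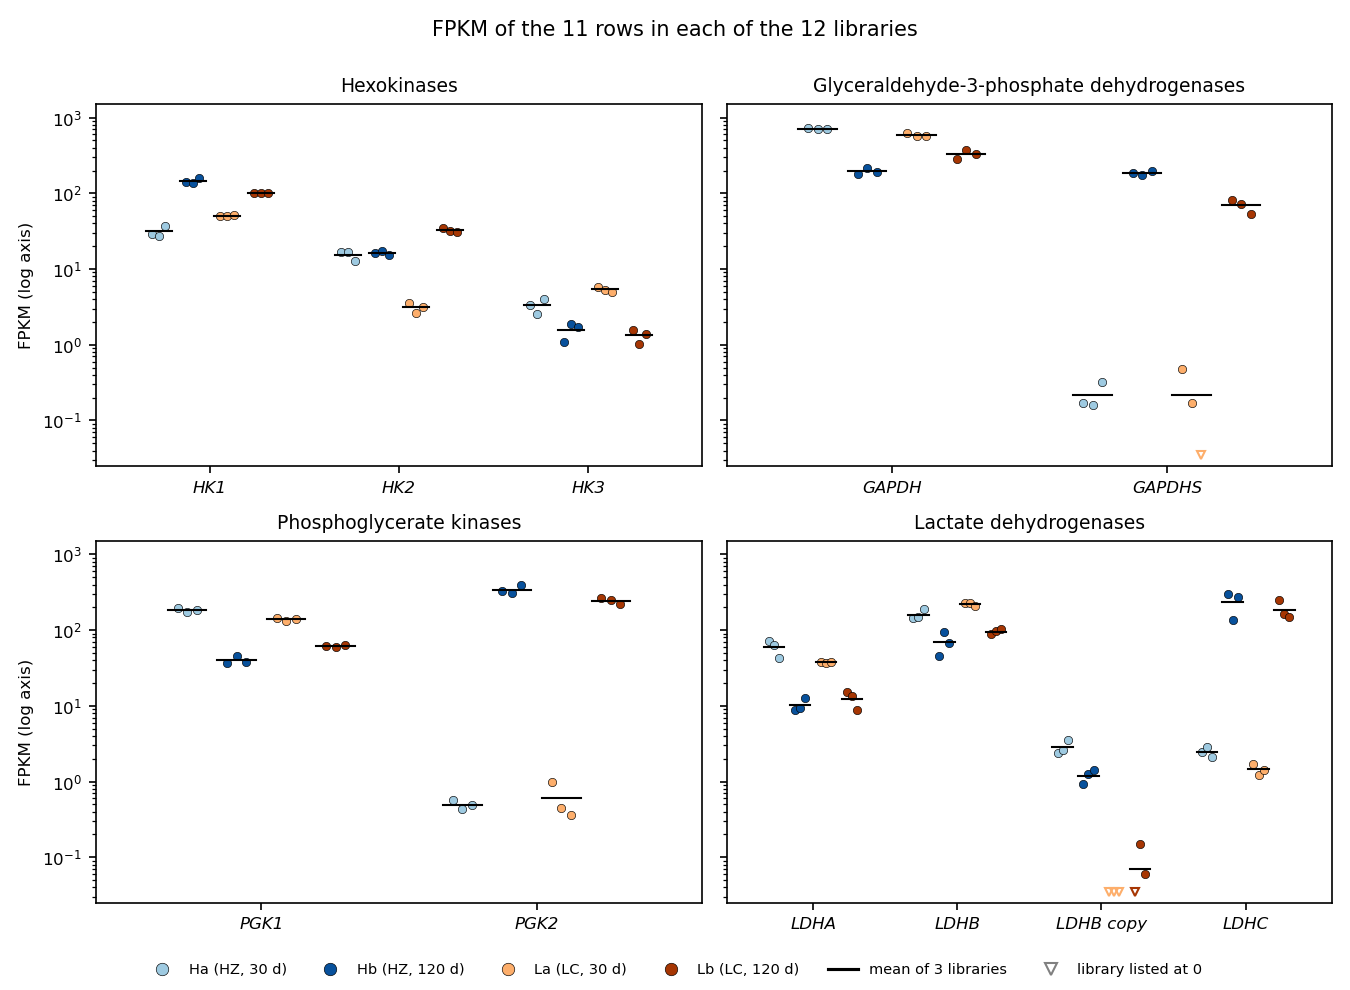
FPKM of each hexokinase and isoform (vertical axis, log scale) in the 4 groups of breed and age, with 1 point per library and a bar at the group mean. PGK2, GAPDHS and LDHC lie at 2.88 FPKM or less at 30 days and at 53.98 FPKM or more in each library of 120 days.

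HK1, the hexokinase with the widest tissue range, lies on chromosome 14 at 72383328 to 72460927 of build Sscrofa11.1. Its FPKM was 29.5, 27.2 and 37.5 in Ha, 139, 135 and 160 in Hb, 49.8, 50.02 and 52.1 in La and 101, 102 and 101 in Lb. Each library of 120 days lay above each of 30 days, and no neighbouring groups overlapped in the order Hb, Lb, La and Ha. The mean FPKM in these groups was 145 ± 13.3, 101 ± 0.729, 50.7 ± 1.29 and 31.4 ± 5.41 (SD, n = 3 in each). HK1 rose with age in HZ by a log2 fold change of 2.70 (SE 0.19, edgeR adjusted p = 2.1e-05). In LC it rose by 1.31 (SE 0.09, edgeR adjusted p = 5.32e-06), and with limma on log2(FPKM + 1) and log2(FPKM + 0.1) that log2 fold change was 0.986 and 0.999, under the threshold. The rise was smaller in LC, with a log2 interaction of −1.40 (SE 0.19, edgeR adjusted p = 0.00367). At the same age the log2 fold change between breeds was 0.72 (SE 0.12, edgeR adjusted p = 0.00646) at 30 days and −0.63 (SE 0.13, edgeR adjusted p = 0.0387) at 120 days, neither past the fold threshold. Values are summed per gene, so transcripts of HK1 that germ cells use cannot be told apart from others here.

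HK2, an insulin-responsive hexokinase known from muscle and fat, lies on chromosome 3 at 68155656 to 68231187. HK2 had an FPKM of 17.02, 16.9 and 12.6 in Ha, 16.2, 17.6 and 15.3 in Hb, 3.61, 2.66 and 3.11 in La and 35.03, 31.3 and 30.9 in Lb. The La libraries were the lowest and the Lb libraries the highest of the 12, while Hb and Ha overlapped between them. Mean FPKM was 32.4 ± 2.27 in Lb, 16.4 ± 1.12 in Hb, 15.5 ± 2.50 in Ha and 3.13 ± 0.475 in La. It rose with age in LC by a log2 fold change of 3.69 (SE 0.16, edgeR adjusted p = 2.73e-07). In HZ the log2 fold change was 0.57 (SE 0.15, edgeR adjusted p = 0.0103), under the fold threshold. With library totals that value was 0.26 (edgeR adjusted p = 0.152). With limma on log2(FPKM + 1) and log2(FPKM + 0.1) it was 0.083 and 0.089, so a rise in HZ depends on the scaling. The interaction was 3.10 (SE 0.22, edgeR adjusted p = 0.000143), so the change with age was larger in LC, and the breeds already stood apart at 30 days, at −2.28 (SE 0.17, edgeR adjusted p = 0.000352) for La over Ha. At 120 days Lb over Hb gave 0.87 (SE 0.13, edgeR adjusted p = 0.0182), with no overlap of the groups but under the fold threshold. All 21 alternatives kept the calls of both interactions, that of HK1 between −1.51 and −1.19 and that of HK2 between 2.94 and 3.27.

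HK3 is the hexokinase of white blood cells, on chromosome 2 at 81042401 to 81060832. FPKM of HK3 was 3.32, 2.51 and 4.07 in Ha, 1.1, 1.88 and 1.71 in Hb, 5.82, 5.35 and 5.01 in La and 1.57, 1.03 and 1.39 in Lb. Its values were low throughout and lower at 120 days, where Hb and Lb overlapped, while La lay above Ha. The means were 5.39 ± 0.407 in La, 3.30 ± 0.780 in Ha, 1.56 ± 0.410 in Hb and 1.33 ± 0.275 in Lb. HK3 fell in LC, with a log2 fold change of −1.68 (SE 0.20, edgeR adjusted p = 0.000118). In HZ the log2 fold change was −0.60 (SE 0.26, edgeR adjusted p = 0.0771), which did not pass, and −1.04 with limma on log2(FPKM + 0.1), past the threshold. Its interaction of −1.10 (SE 0.33, edgeR adjusted p = 0.0678) did not pass by edgeR, and it was called in 2 of 21 alternatives, with DESeq2 (−1.14) and without Hb1 (−1.24). Between breeds it gave 0.72 (SE 0.18, edgeR adjusted p = 0.0261) at 30 days and −0.33 (SE 0.29, edgeR adjusted p = 0.498) at 120 days.

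Per length, HK1 was the leading hexokinase in each library, the shares of HK1 and HK2 moved in opposite directions with age in the breeds, and the share of HK3 was lower at 120 days in both. The share of HK1 in the summed FPKM of the hexokinases was 62.3 ± 6.04% in Ha and 88.9 ± 1.48% in Hb, against 85.6 ± 1.33% in La and 75.0 ± 1.41% in Lb (SD, n = 3). HK2 took 31.2 ± 6.95% of it in Ha and 10.1 ± 1.36% in Hb, against 5.28 ± 0.763% in La and 23.99 ± 1.27% in Lb. HK3 went from 6.52 ± 1.07% to 0.962 ± 0.258% in HZ and from 9.12 ± 0.761% to 0.984 ± 0.195% in LC. The summed FPKM of the 3 genes was 50.2 ± 3.81 in Ha, 163 ± 12.4 in Hb, 59.2 ± 1.12 in La and 135 ± 2.35 in Lb. No p is given for shares, which describe the libraries.

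**Figure D2:**
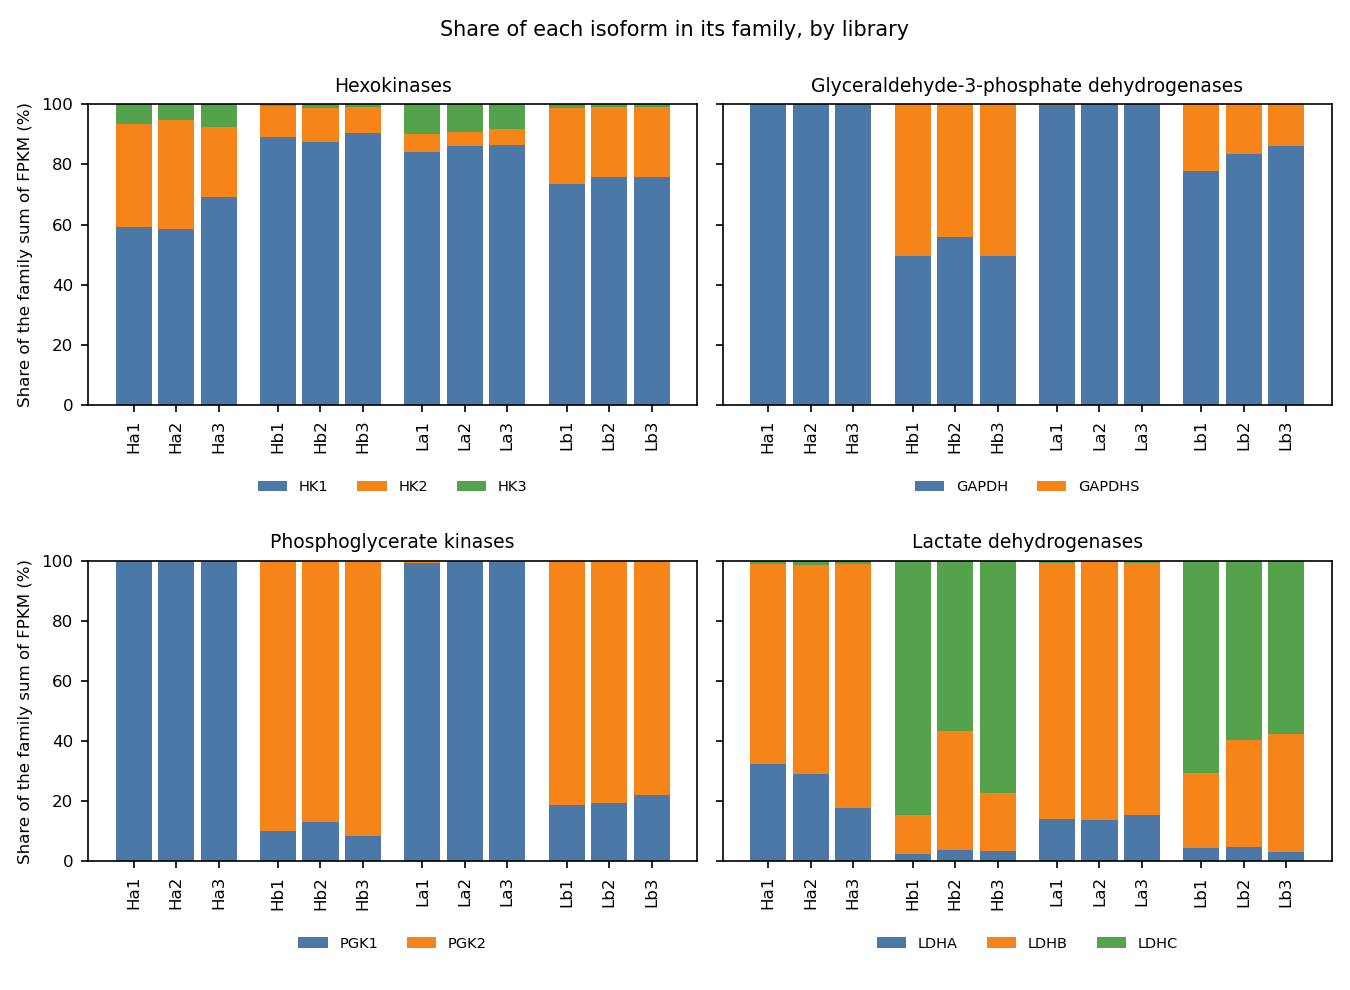
Share of each isoform in the summed FPKM of its family (percent, vertical axis) in each of the 12 libraries, as stacked bars for 4 families. PGK2 takes 86.9% to 91.4% of PGK FPKM in Hb and 77.9% to 81.2% in Lb, and under 1% at 30 days.

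GAPDH, the glyceraldehyde-3-phosphate dehydrogenase of all cells and a common reference gene, lies on chromosome 5 at 64129678 to 64135194. Its FPKM in the libraries was 729, 713 and 712 in Ha, 182, 219 and 193 in Hb, 618, 565 and 571 in La and 281, 368 and 334 in Lb. All libraries of 30 days lay above all of 120 days, and no neighbouring groups overlapped in the order Ha, La, Lb and Hb. Their mean FPKM was 718 ± 9.67, 585 ± 29.0, 328 ± 43.9 and 198 ± 19.0 (SD, n = 3). GAPDH fell in HZ, with a log2 fold change of −1.37 (SE 0.12, edgeR adjusted p = 5.17e-05). In LC the log2 fold change of −0.52 (SE 0.12, edgeR adjusted p = 0.00517) missed the fold threshold. The interaction was 0.83 (SE 0.16, edgeR adjusted p = 0.014), under the fold threshold, and 1.02 with limma on either FPKM scale, past it. Between breeds GAPDH gave −0.27 (SE 0.08, edgeR adjusted p = 0.0434) at 30 days and 0.61 (SE 0.14, edgeR adjusted p = 0.0502) at 120 days. Among 21674 genes ranked by mean FPKM it stood at place 49 in Ha, 76 in La, 97 in Lb and 211 in Hb.

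GAPDHS, the sperm form of the same enzyme, lies on chromosome 6 at 44968965 to 44978992. GAPDHS had an FPKM of 0.17, 0.16 and 0.32 in Ha, 187, 173 and 197 in Hb, 0.48, 0.17 and 0 in La and 80.9, 72.4 and 53.98 in Lb. It was close to 0 at 30 days in both breeds, with 0 to 24.1 estimated counts per library, and high at 120 days, when each Hb library lay above each Lb library. Mean FPKM was 185 ± 12.0 in Hb and 69.1 ± 13.7 in Lb, while Ha and La overlapped. The rise in HZ had a log2 fold change of 10.24 (SE 0.31, edgeR adjusted p = 1.67e-06). In LC it was 8.64 (SE 0.59, edgeR adjusted p = 4.07e-06), with values of 10.12 without replicate 1 of La and 8.0 without replicate 3 of La, so its size rests on few counts. At 120 days GAPDHS was lower in LC, with a log2 fold change of −1.53 (SE 0.20, edgeR adjusted p = 0.0118). That call was lost without replicate 2 of Lb, at −1.58 (edgeR adjusted p = 0.0583, over alternatives 3.45e-10 to 0.0583). It was not tested in Ha vs La because of low counts, and its interaction of −1.61 (SE 0.85, edgeR adjusted p = 0.27) did not pass. That interaction was called with limma on log2(FPKM + 1) (−1.41), and over 21 alternatives it ran from −2.19 without La3 to −0.12 without La1, so whether the change with age differs between breeds rests on few counts at 30 days. In FPKM, GAPDHS made up 48.4 ± 3.72% of GAPDH and GAPDHS in Hb, and 44.1% to 50.6% in the libraries of that group. In Lb it made up 17.6 ± 4.33%, with 13.9% to 22.4% in the libraries, so the groups did not overlap. At 30 days the share was 0.0302 ± 0.0127% in Ha and 0.0359 ± 0.0391% in La. Summed FPKM of both genes was 718 ± 9.62 in Ha, 384 ± 12.8 in Hb, 585 ± 29.3 in La and 397 ± 40.1 in Lb.

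PGK1, the X-linked phosphoglycerate kinase of somatic cells, lies at 62187472 to 62210321 of the X chromosome. Its FPKM by library was 193, 172 and 185 in Ha, 36.7, 45.9 and 37.6 in Hb, 145, 130 and 142 in La and 61.3, 60.8 and 63.1 in Lb. Libraries of 30 days lay above all of 120 days, and the order Ha, La, Lb and Hb had no overlap, with means of 184 ± 10.7, 139 ± 7.98, 61.7 ± 1.25 and 40.1 ± 5.06 FPKM. PGK1 fell in HZ, with a log2 fold change of −1.71 (SE 0.12, edgeR adjusted p = 1.93e-05). In LC it gave −0.86 (SE 0.10, edgeR adjusted p = 7.46e-05), under the fold threshold, and −1.03 with library totals and −1.16 and −1.17 with limma on FPKM, past it. The interaction of 0.84 (SE 0.14, edgeR adjusted p = 0.00754) was under the fold threshold, but 1.01 and 1.03 with limma on log2(FPKM + 1) and log2(FPKM + 0.1), past it. Under the threshold were also the breed differences of −0.37 (SE 0.08, edgeR adjusted p = 0.0192) at 30 days and 0.51 (SE 0.13, edgeR adjusted p = 0.0576) at 120 days.

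PGK2, the germ-cell copy, lies on chromosome 7 at 43839239 to 43840892, a span of 1654 bases with 1 RefSeq transcript. PGK2 showed an FPKM of 0.57, 0.43 and 0.49 in Ha, 324, 305 and 399 in Hb, 0.99, 0.45 and 0.36 in La and 264, 250 and 223 in Lb. It was very low at 30 days, with counts of 18 to 47 per library and overlap of La and Ha, and high at 120 days, when each Hb library lay above each Lb library at means of 343 ± 49.3 and 246 ± 20.9 FPKM. By mean FPKM, PGK2 ranked 13447 of 21674 genes in Ha and 90 in Hb, and 13016 in La and 154 in Lb. Its log2 fold change with age was 9.91 (SE 0.25, edgeR adjusted p = 1.65e-06) in HZ. In LC the change was 8.98 (SE 0.34, edgeR adjusted p = 1.53e-07). Breed differences of 0.30 (SE 0.44, edgeR adjusted p = 0.666) at 30 days and −0.60 (SE 0.16, edgeR adjusted p = 0.0748) at 120 days did not pass, nor did the interaction of −0.95 (SE 0.42, edgeR adjusted p = 0.191). PGK2 made up 0.269 ± 0.0227% of PGK FPKM in Ha and 89.4 ± 2.26% in Hb. In LC its share went from 0.425 ± 0.224% to 79.8 ± 1.69%. Total PGK FPKM was 184 ± 10.8 in Ha, 383 ± 46.5 in Hb, 140 ± 8.17 in La and 307 ± 19.8 in Lb, higher at 120 days in each library.

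LDHA, the subunit typical of muscle, lies on chromosome 2 at 40814163 to 40827284, only 4048 bases from LDHC at 40748567 to 40810114. LDHA had an FPKM of 72.3, 63.2 and 42.3 in Ha, 8.93, 9.5 and 12.5 in Hb, 38.2, 36.6 and 37.7 in La and 15.3, 13.4 and 8.68 in Lb. Libraries of 30 days lay above those of 120 days, where Lb and Hb overlapped, and Ha lay above La. Mean FPKM was 59.2 ± 15.4 in Ha, 37.5 ± 0.835 in La, 12.5 ± 3.43 in Lb and 10.3 ± 1.94 in Hb. LDHA fell in both breeds, with a log2 fold change of −2.01 (SE 0.23, edgeR adjusted p = 0.000239) in HZ. The fall in LC was −1.25 (SE 0.22, edgeR adjusted p = 0.00101). Breed differences of −0.63 (SE 0.18, edgeR adjusted p = 0.0417) and 0.16 (SE 0.26, edgeR adjusted p = 0.743) at 30 and 120 days were not called, and the interaction was 0.74 (SE 0.35, edgeR adjusted p = 0.221).

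LDHC, its neighbour on the chromosome, moved the other way. The FPKM of LDHC was 2.47, 2.88 and 2.09 in Ha, 298, 138 and 273 in Hb, 1.72, 1.23 and 1.43 in La and 247, 163 and 151 in Lb. All libraries of 120 days lay far above those of 30 days, Hb and Lb overlapped, and Hb2 was the lowest of the 120-day libraries. Mean FPKM was 236 ± 86.2 in Hb, 187 ± 52.4 in Lb, 2.48 ± 0.395 in Ha and 1.46 ± 0.246 in La, and Ha lay above La. LDHC rose in HZ by a log2 fold change of 6.93 (SE 0.42, edgeR adjusted p = 1.21e-05). Its rise in LC was 7.23 (SE 0.28, edgeR adjusted p = 1.66e-07). Neither the breed differences of −0.78 (SE 0.24, edgeR adjusted p = 0.0561) at 30 days and −0.43 (SE 0.33, edgeR adjusted p = 0.437) at 120 days nor the interaction of 0.29 (SE 0.45, edgeR adjusted p = 0.743) passed.

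LDHB, the subunit typical of heart, lies on chromosome 5 at 51810932 to 51831218. LDHB gave an FPKM of 145, 147 and 188 in Ha, 45.1, 94.8 and 67.1 in Hb, 229, 227 and 206 in La and 87.6, 96.6 and 103 in Lb. La lay above Ha, both lay above the libraries of 120 days, and Lb and Hb overlapped. Means in the order La, Ha, Lb and Hb were 221 ± 13.0, 160 ± 23.97, 95.7 ± 7.64 and 69.0 ± 24.9 FPKM. The log2 fold change with age was −0.75 (SE 0.23, edgeR adjusted p = 0.0202) in HZ, and −0.89 (SE 0.10, edgeR adjusted p = 7.93e-05) in LC, under the fold threshold in both. With library totals it was −1.04 in HZ and −1.06 in LC, and with limma on log2(FPKM + 1) −1.26 and −1.20, past the threshold in both breeds. Breed differences were 0.49 (SE 0.11, edgeR adjusted p = 0.0213) at 30 days and 0.37 (SE 0.23, edgeR adjusted p = 0.341) at 120 days, and the interaction was −0.16 (SE 0.26, edgeR adjusted p = 0.753).

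The LDHB copy lies on chromosome 2 at 12988754 to 12990033, a span of 1280 bases that overlaps the annotated pseudogene LOC407246. Its FPKM was 2.35, 2.62 and 3.56 in Ha, 0.93, 1.24 and 1.41 in Hb, 0, 0 and 0 in La and 0, 0.15 and 0.06 in Lb. HZ boars had it at both ages, La had no count in any library, and Lb had at most 6.19 estimated counts. At 30 days it was at least 32.4-fold higher in HZ than in LC, against a floor of 3 counts per library (edgeR adjusted p = 0.000992). At 120 days the size of the log2 fold change of Lb over Hb rests on few counts, and its smallest value over 16 alternatives was −1.03. In the main fit it was −4.19 (SE 0.81, edgeR adjusted p = 0.0305), which was called. That call was lost without replicate 3 of Hb (−4.04) and without replicate 1 (−3.61) or 3 (−4.08) of Lb, and without Lb2, which leaves Lb with 0 and 2.07 estimated counts and no size to give. Without each of these, edgeR adjusted p ran from 0.0586 to 0.117, where all alternatives ran from 3.35e-05 to 0.117. With age in HZ it gave −0.77 (SE 0.31, edgeR adjusted p = 0.0606), which did not pass, and −1.07 with library totals and −1.18 with limma on log2(FPKM + 0.1), which did. It was not tested in La vs Lb, and its interaction did not pass (edgeR adjusted p = 0.0656) but was called with DESeq2, with limma on log2(FPKM + 0.1) and without Lb1. Its size is not given, since La had no counts. At a tolerance of 0.005, estimated counts of this row were not whole in 8 of 12 libraries and those of LDHB in 9 of 12. Whether reads were shared between them was not tested.

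By FPKM, with both LDHB rows summed, LDHB led the lactate dehydrogenases at 30 days and LDHC at 120 days. LDHB made up 72.3 ± 7.80% of the family in Ha and 85.0 ± 0.867% in La, then 23.95 ± 13.8% in Hb and 33.2 ± 7.33% in Lb. LDHC made up 1.11 ± 0.223% in Ha and 0.563 ± 0.0886% in La, then 72.7 ± 14.4% in Hb and 62.6 ± 7.01% in Lb. LDHA took 26.6 ± 7.64% in Ha, 3.33 ± 0.713% in Hb, 14.5 ± 0.826% in La and 4.20 ± 0.824% in Lb. Replicate 2 of Hb held the lowest LDHC share, 56.6%, against 84.4% and 77.1% in the other Hb libraries. The summed FPKM was 225 ± 10.1 in Ha, 317 ± 63.6 in Hb, 260 ± 13.0 in La and 295 ± 47.8 in Lb. Outside the chosen symbols, LOC100153697, annotated as L-lactate dehydrogenase A-like 6B and looked up after the values were seen, also rose. LOC100153697 had an FPKM of 1.43, 1.38 and 0.85 in Ha, 43.2, 32.3 and 36.1 in Hb, 0.73, 1.1 and 0.77 in La and 39.7, 38.3 and 41.7 in Lb, with no overlap between the ages. Its log2 fold change was 5.43 (SE 0.28, edgeR adjusted p = 6.56e-06) in HZ, and 5.85 (SE 0.18, edgeR adjusted p = 7.66e-08) in LC.

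**Figure D3:**
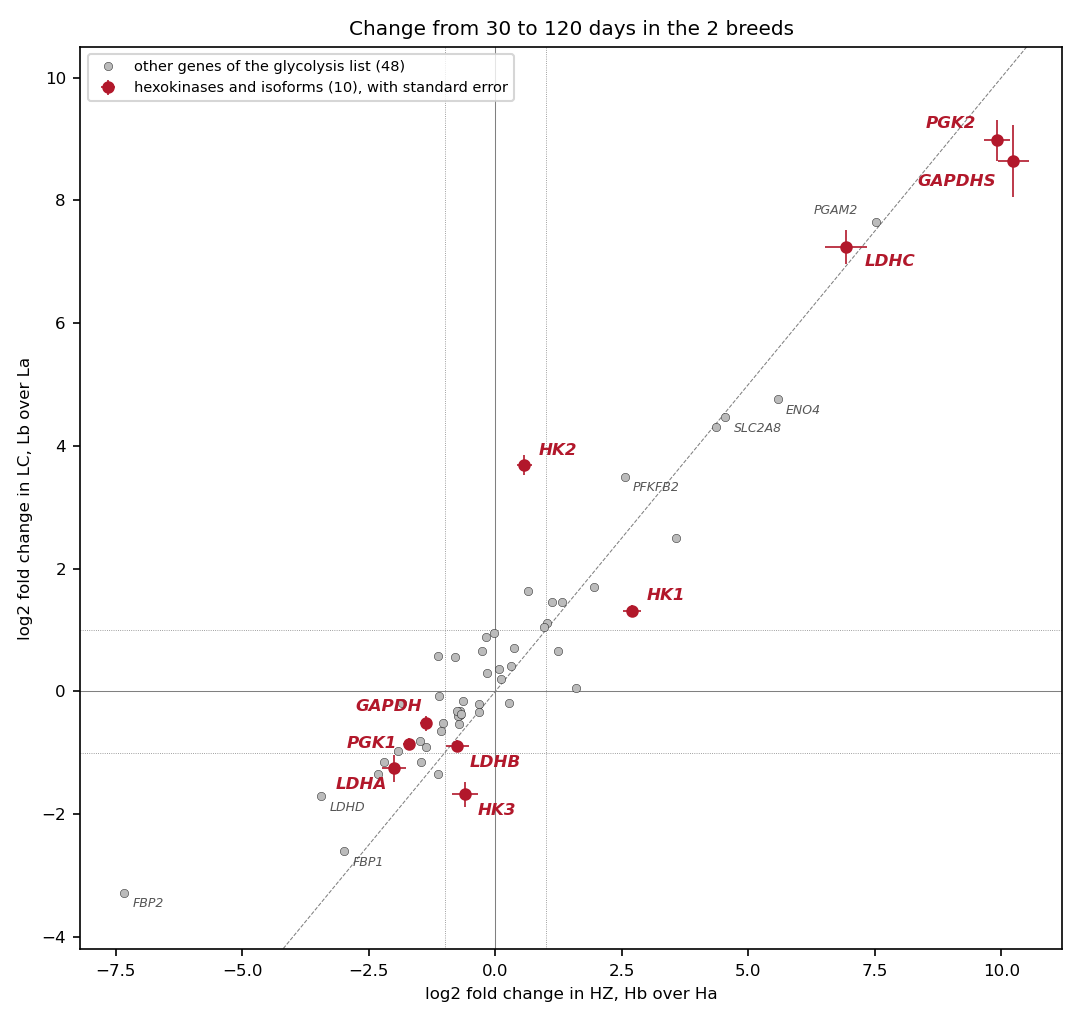
Log2 fold change from 30 to 120 days in HZ (horizontal) and LC (vertical) for 10 hexokinases and isoforms with standard errors and 48 genes of the glycolysis list, with a dashed line where both are equal and dotted lines at the fold threshold. HK2 lies above the line (0.57 and 3.69) and HK1 below it (2.70 and 1.31), and SLC2A5 and the LDHB copy are left out because a group had no counts or no test.

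A list of 54 other genes of glucose uptake, glycolysis, lactate and pyruvate handling, of which 52 were in the table under their symbols, puts the members in context. In Ha vs Hb, 24 of 49 tested list genes were called, 11 higher and 13 lower, beside 51.4% of all genes, and the median log2 fold change was −0.32 beside −0.02 over all genes. In La vs Lb, 20 of 50 were called, 13 higher and 7 lower, beside 47.6%, with a median of 0.13 beside 0.01. By role, 12 of 19 tested enzymes were called in HZ and 10 of 20 in LC, 5 of 7 and 4 of 7 regulators, 3 of 5 and 3 of 5 transporters, 2 of 7 and 2 of 7 genes of lactate handling, and 2 of 11 and 1 of 11 genes of pyruvate use.

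PGAM2, the muscle phosphoglycerate mutase, rose in both breeds. Its FPKM was 0.64, 0.55 and 0.76 in Ha, 170, 124 and 211 in Hb, 0.66, 0.76 and 0.89 in La and 243, 209 and 226 in Lb. All 30-day libraries stood under 1 FPKM, far below all 120-day libraries. The log2 fold change was 7.52 (SE 0.34, edgeR adjusted p = 4.03e-06) in HZ, and 7.64 (SE 0.15, edgeR adjusted p = 2.81e-08) in LC. ENO4, an enolase of the sperm tail, rose by a log2 fold change of 5.58 (SE 0.53, edgeR adjusted p = 9.35e-05) in HZ, or 6.23 without replicate 3 of Ha, and by 4.77 (SE 0.22, edgeR adjusted p = 4.41e-07) in LC. Over 16 alternatives the value of ENO4 ran from 2.12 to 6.23 in HZ and from 2.12 to 4.83 in LC, and each kept the call. SLC2A8, a glucose transporter, rose by 4.54 (SE 0.26, edgeR adjusted p = 1.02e-05) in HZ and 4.46 (SE 0.23, edgeR adjusted p = 7.69e-07) in LC. SLC2A5, a fructose transporter, had no count in Ha and a mean of 3.68 ± 2.62 CPM (SD, n = 3) in Hb, which is higher by at least 31.3-fold (edgeR adjusted p = 0.00121 over the 6 libraries), and by at least 18.6-fold without Hb3. With limma on log2(FPKM + 1) its log2 fold change of 0.845 was under the threshold. In LC its log2 fold change was 4.62 (SE 0.89, edgeR adjusted p = 0.00169), resting on a single La library with counts, La2, and 4.02 without La1 and 3.995 without La3. Without La2 the other La libraries had no count, and Lb was higher by at least 15.9-fold. With limma on log2(FPKM + 1) the LC value was 0.56, under the threshold.

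FBP2, a fructose bisphosphatase known from muscle that works against glycolysis, had the largest called fall of the list in both breeds. FBP2 had an FPKM of 52.1, 38.4 and 91.7 in Ha, 0.71, 0 and 0.07 in Hb, 57.7, 37.95 and 43.9 in La and 4.44, 5.8 and 1.06 in Lb. All 120-day libraries lay below all 30-day libraries, and Hb lay below Lb. The log2 fold change was −7.33 (SE 0.94, edgeR adjusted p = 0.000362) in HZ, −6.69 without Hb2, and −3.28 (SE 0.51, edgeR adjusted p = 0.000515) in LC. Without Hb1 the call in HZ held, but the other Hb libraries had 0 and 1.87 estimated counts, so no size is given. LDHD, which uses D-lactate, fell in both breeds, with a log2 fold change of −3.45 (SE 0.61, edgeR adjusted p = 0.00178) in HZ, or −4.49 without replicate 1 of Hb, and −1.71 (SE 0.31, edgeR adjusted p = 0.00117) in LC. FBP1, the liver form of the bisphosphatase, fell with −2.99 (SE 0.75, edgeR adjusted p = 0.00902) in HZ, or −4.38 without replicate 1 of Hb, and −2.61 (SE 0.26, edgeR adjusted p = 3.56e-05) in LC. The lactate and pyruvate transporter SLC16A7 fell in both breeds, at −2.32 (SE 0.35, edgeR adjusted p = 0.000824) in HZ and −1.34 (SE 0.16, edgeR adjusted p = 9.39e-05) in LC. So did the enolase ENO1, at −1.13 (SE 0.18, edgeR adjusted p = 0.00121) in HZ and −1.34 (SE 0.10, edgeR adjusted p = 6.3e-06) in LC.

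Between breeds at 30 days, 3 of 48 tested list genes were called, all lower in LC, beside 7.62% of all genes, with a median of −0.25 beside 0.00. Among them were PFKFB2, which sets the level of an activator of phosphofructokinase, at −1.89 (SE 0.29, edgeR adjusted p = 0.0049), and PDK4, which switches off pyruvate dehydrogenase, at −1.65 (SE 0.19, edgeR adjusted p = 0.00193). With limma on log2(FPKM + 1) the value of PFKFB2 was −0.91, under the fold threshold. At 120 days edgeR called 0 of 49 list genes, beside 3.85% of all genes, while 12 had an unadjusted p under 0.05 and DESeq2 called 1, and the median was 0.24 beside 0.00. Without replicate 1 of Hb edgeR called 2 there and without replicate 2 of Hb it called 3.

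The interaction was called for 4 of 50 list genes, beside 5.14% of all genes, with the LC change above the HZ change in each. PFKL, the liver form of phosphofructokinase, fell in HZ, with a log2 fold change of −1.12 (SE 0.17, edgeR adjusted p = 0.000813), and gave −0.08 (SE 0.13, edgeR adjusted p = 0.611) in LC, an interaction of 1.03 (SE 0.22, edgeR adjusted p = 0.021). Its interaction fell under the fold threshold in 4 of 21 alternatives, with DESeq2 (0.985), RLE size factors (0.984), and without Hb2 (0.93) or Lb2 (0.91). PGAM1, the widespread phosphoglycerate mutase, fell with −2.20 (SE 0.13, edgeR adjusted p = 1.1e-05) in HZ and −1.15 (SE 0.13, edgeR adjusted p = 6.61e-05) in LC, an interaction of 1.04 (SE 0.18, edgeR adjusted p = 0.0094). That of PGAM1 was under the threshold in 4 of 21, with DESeq2 (0.996), RLE size factors (0.996), and without Hb3 (0.98) or Lb2 (0.91). For PDK4 the changes with age were −0.79 (SE 0.23, edgeR adjusted p = 0.0167) in HZ and 0.56 (SE 0.16, edgeR adjusted p = 0.0142) in LC, neither past the fold threshold, and the interaction was 1.33 (SE 0.30, edgeR adjusted p = 0.0252). It lost its call without Ha1 (1.32), Ha2 (1.23), Hb3 (1.38), La1 (1.19) or La2 (1.42), and the value with age in HZ was past the threshold without Hb2 (−1.01), with library totals (−1.08) and with limma on log2(FPKM + 1) (−1.21) and log2(FPKM + 0.1) (−1.29). The interaction of FBP2 was 4.05 (SE 1.09, edgeR adjusted p = 0.0467), and it lost its call in 13 of 21 alternatives. It was called without Hb1, which leaves Hb at the floor, and without Lb3, and lost without each of the other 10 libraries, at 3.37 (without Hb2) to 4.30 (without Ha2).

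Markers of the cell types of the testis moved with age as well. Among all genes, 28.2% rose in HZ and 27.5% in LC. Of 10 spermatid markers, 9 of 9 tested rose in each breed, beside the rises of PGK2, GAPDHS and LDHC. Their summed FPKM was 5.72, 7.02 and 6.73 in Ha, 5280, 5793 and 7667 in Hb, 10.8, 9.39 and 4.53 in La and 3909, 3342 and 3575 in Lb, with PRM1 the most abundant. The sums were very low at 30 days and high at 120 days, with each Hb library above each Lb library. Markers with a value of 0 at 30 days were SPACA3 and AKAP4 in Ha1, TNP1 in Ha2, TNP1, ACRV1 and SPACA3 in Ha3, PRM2 in La1, TNP1 in La2, and PRM2, TNP1 and SPACA3 in La3. SPACA3 was also at 0 in Hb1 and Lb2. In Hb vs Lb, 1 of 10 spermatid markers was called, lower in LC, beside 1.2% of all genes. The other spermatid markers were not called there, while GAPDHS was called lower in LC. All 8 spermatocyte markers rose in each breed, with a summed FPKM of 10.49, 10.96 and 6.5 in Ha, 151, 157 and 134 in Hb, 5.4, 4.76 and 4.41 in La and 116, 110 and 124 in Lb, with PIWIL1 the most abundant in Ha, Hb and Lb and MEIOB in La, and none at 0. At 30 days 4 of 8 were lower in LC, beside 4.01% of all genes. Falls covered 23.2% of all genes in HZ and 20.1% in LC. Spermatogonial markers were mixed, with 3 of 11 higher and 6 lower in HZ and 4 higher and 5 lower in LC. Their summed FPKM was 76.02, 73.3 and 59.5 in Ha, 177, 182 and 173 in Hb, 41.2, 40.6 and 43.9 in La and 155, 140 and 162 in Lb, the most abundant was DAZL in Ha, ZBTB16 in La and DDX4 in Hb and Lb, and NANOS2 in Hb1 and Lb2 and STRA8 in La2 were at 0. At 30 days 1 of 10 tested spermatogonial markers was lower in LC, beside 4.01% of all genes. The part of these germ cells in the results was not tested.

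Part of the markers of somatic cells fell, beside the called falls of GAPDH and PGK1 in HZ and of LDHA in both breeds. GAPDH and PGK1 were also lower at 120 days in LC, under the fold threshold. Among all genes, 23.2% fell in HZ and 20.1% in LC. Between breeds, 3.6% of all genes were higher in La than in Ha, and 2.65% were higher in Lb than in Hb. Of 8 Sertoli markers 4 fell in each breed and 3 were higher in La than in Ha, with a summed FPKM of 782, 751 and 973 in Ha, 181, 288 and 216 in Hb, 1508, 1770 and 1632 in La and 311, 385 and 371 in Lb. The most abundant was INHA in Ha and La and CLDN11 in Hb and Lb. Leydig markers fell in 4 of 7 genes in HZ and 5 of 7 in LC, with a summed FPKM of 5487, 5009 and 4883 in Ha, 2180, 189 and 128 in Hb, 7771, 5341 and 6281 in La and 2708, 4057 and 1712 in Lb. CYP17A1 was the most abundant in Ha and La and INSL3 in Hb and Lb. Replicate 1 of Hb stood apart from the other Hb libraries in that sum. Of the 7 Leydig markers, 1 was higher in La than in Ha. Peritubular and stromal markers fell in 8 of 10 genes in HZ, and in LC 5 fell and 1 rose. Their summed FPKM was 977, 950 and 978 in Ha, 102, 101 and 66.5 in Hb, 1341, 1224 and 1512 in La and 530, 516 and 562 in Lb, led by ACTA2 in Hb and by COL3A1 in the other groups, and 5 of 10 were higher in Lb than in Hb. None of the Sertoli, Leydig or stromal markers was at 0 in any library.

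Where 23.2% of all genes fell in HZ and 20.1% in LC, endothelial markers fell in 5 of 5 genes in HZ and 3 of 5 in LC. Their summed FPKM was 93.7, 94.6 and 84.4 in Ha, 13.9, 26.7 and 15.7 in Hb, 97.95, 78.3 and 91.04 in La and 28.2, 45.7 and 28.6 in Lb, VWF was the most abundant, and EMCN was at 0 in Hb2 and La3. Macrophage markers fell in 5 of 5 and 4 of 5 genes, with a summed FPKM of 40.3, 32.7 and 32.6 in Ha, 3.49, 4.56 and 2.24 in Hb, 38.3, 33.03 and 36.3 in La and 5.91, 9.64 and 9.91 in Lb, CD163 the most abundant in Ha, CSF1R in the other groups, and none at 0. Markers of neutrophils and monocytes fell in 4 of 7 tested genes in LC, where HK3 was called lower at 120 days. In HZ, where HK3 was not called, 5 of 7 of these markers fell and 1 rose. Their summed FPKM was 12.9, 9.54 and 36.8 in Ha, 2.05, 4.21 and 2.8 in Hb, 22.5, 27.5 and 17.7 in La and 3.15, 5.79 and 2.79 in Lb, with S100A8 the most abundant in Ha and La and VCAN in Hb and Lb. S100A8 and S100A12 were at 0 in Hb1, FCN1 in Hb3, ITGAM in Lb1 and S100A12 in Lb3. Red cell markers fell in 4 of 4 genes in HZ and 0 of 3 in LC, and 3 of 4 were lower in La than in Ha, beside 4.01% of all genes. HBB led their summed FPKM of 164, 226 and 70.7 in Ha, 4.23, 17.04 and 26.5 in Hb, 107, 37.3 and 35.7 in La and 12.9, 17.8 and 44.2 in Lb. Between breeds at 120 days, 1 of 5 endothelial and 1 of 5 macrophage markers were higher in Lb, beside 2.65% of all genes. What these cell types contribute to the changes of the members was not tested either.

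The coding genes most alike each member were found by Pearson's r of log2 CPM over the 12 libraries among 16641 genes. This is a description, since the libraries differ in age and breed. PGK2 was most like ODF1 (r = 0.9996) and SPERT (0.9994), LDHC most like GSG2 (0.9993) and DDX25 (0.9986), and GAPDHS most like PRSS51 (0.9951) and ZNRF4 (0.9943). ODF1 is among the spermatid markers above. PGK1 was most like RPP25 (0.9954) and ORMDL3 (0.9937), GAPDH most like PECAM1 (0.9941), an endothelial marker, and MRPL55 (0.9898), and LDHA most like UNC119B (0.9776) and PLD1 (0.9681). HK1 lay closest to ORAI2 (0.9930), HK2 to KIF5C (0.9793) and CEMIP (0.9775), and HK3 to KIAA0408 (0.9591) and AIF1L (0.9543). LDHB lay closest to RACK1 (0.9904) and LOC100620992 (0.9830), and its copy to SHOX (0.9446) and ACSM5 (0.9338).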

How the data were processed

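Testis RNA of 12 boars was measured in strand-specific libraries. The authors filtered reads with fastp 0.18.0, removed ribosomal reads with Bowtie2 2.2.8, mapped to Sscrofa11.1 with HISAT2 2.1.0 and assembled with StringTie 1.3.4. The authors deposited estimated counts summed per gene, not normalized and made by a tool that is not stated. At a tolerance of 0.005, these counts were not whole in 8 of 12 libraries for GAPDHS and 11 for HK1 and LDHA. How shared reads were divided is not stated. The deposited FPKM values were made with StringTie and rounded to 2 decimals. All libraries were used, each matched to its group by its label. The members and lists were chosen with earlier results of these data known.

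In edgeR 4.0.16 (R 4.3.3), counts rounded to whole numbers passed filterByExpr at a minimum count of 10 and TMM normalization. Groups were compared by its quasi-likelihood test on the 6 libraries of each comparison and on all 12 for the interaction, with Benjamini-Hochberg adjustment over all coding genes tested. The standard error is the absolute log2 fold change divided by the square root of the F statistic. A group with all libraries at 0 was set to a floor of 3 counts per library, which covers counting error only. CPM are scaled by TMM over 12 libraries, and log2 CPM has a prior count of 2. Shares are percentages of the summed FPKM of a family, with both LDHB rows added.

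Named genes are all members, and in each comparison the 4 called list genes with the largest rise and the 4 with the largest fall, any list gene with a called interaction, and the 2 genes most alike each member. Of these, 2 are not reported here. LOC100153697 was chosen after its values were seen, and PGAM4 and LDHAL6B of the list were not found by symbol. Markers were those of spermatogonia, spermatocytes, spermatids, Sertoli, Leydig, peritubular and stromal, endothelial and red cells, macrophages, and neutrophils with monocytes. Gene positions come from the RefSeq annotation of Sscrofa11.1. The procedure was also run on simulated data, and no result of that run is given or used here. Alternatives were DESeq2 1.42.0, limma 3.58.1 on log2(FPKM + 1) and log2(FPKM + 0.1), RLE size factors, library totals, other filters, no fold threshold, all 12 libraries in one fit, a replicate block and leaving out each library. Shares were also computed from counts. Python 3.11.15 with numpy 2.4.6, pandas 2.3.3 and matplotlib 3.10.9 served for summaries and figures.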

Additional observations from a re-analysis of the deposited data

Results flagged for a closer look

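The change with age differed between the breeds, LC minus HZ, in an edgeR interaction test for 2 hexokinases, HK1 with −1.40 and HK2 with 3.10 on the log2 scale. The same test passed for PFKL with 1.03, PGAM1 with 1.04, FBP2 with 4.05 and PDK4 with 1.33, which are other genes of glycolysis and pyruvate use. It passed for 5.14% of all genes. Of 21 alternatives, 4 lost the call of PFKL, 4 that of PGAM1, 13 that of FBP2 and 5 that of PDK4. The FBP2 value was 3.37 without Hb2.

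Signal also appeared in data outside the coding genes. LOC110260753, an annotated lncRNA that overlaps GAPDH by 314 bases, had at most 26 estimated counts in a library, with 23 to 26 in La and 1 to 16 elsewhere. LOC110261280, which overlaps GAPDHS by 3476 bases, had up to 420 estimated counts, with 324 to 420 in La, 232 to 336 in Ha, 210 to 239 in Lb and 91.2 to 129 in Hb. Its FPKM was 3.23 to 5.21 in La, 2.28 to 3.45 in Ha, 1.94 to 2.34 in Lb and 1.08 to 1.24 in Hb. It was lowest in Hb on both scales, and a relation to GAPDHS was not tested.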

How the results depend on the processing

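Over 53 fold changes and interactions of members, 858 of 903 values under the alternatives kept their direction and side of the thresholds or stayed uncalled, 8 lost a call, 37 gained one and 0 called values reversed. For 31 results of named list genes, under alternatives chosen after seeing the data, the numbers were 474 of 516, 36, 6 and 0.

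Without a fold threshold, 8 members were called between breeds at 30 days (2 with it), 4 at 120 days (2) and 4 in the interaction (2), and list genes came to 38 with age in LC (20), 12 between breeds at 30 days (3) and 2 at 120 days (0), because fewer criteria apply. The cause was not tested for the following. DESeq2 called 4 member interactions (HK1, HK2, HK3 and the LDHB copy) and 1 list gene in Hb vs Lb. With limma on FPKM plus 1 and plus 0.1, 5 and 5 member interactions (HK1, HK2, GAPDH and PGK1 in both, GAPDHS with plus 1 and the LDHB copy with plus 0.1) and 2 and 2 list genes in Hb vs Lb were called, and with plus 1 there was 1 list gene in Ha vs La. All 12 libraries in one fit gave 2 list genes in Hb vs Lb. Leaving out 1 library gave 0 to 2 members and 0 to 3 list genes in Hb vs Lb, where calls over all genes ranged from 97 to 1029 (628 with all).

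Replicate numbers do not pair boars in these data, so the replicate block was tried only as a check: deviations from the group means correlated at −0.0222 to 0.0527 between libraries of the same number. With the replicate block, 1 member was called in Hb vs Lb, where calls over all genes came to 154 (628 without it), and the LDHB copy lost its call at −4.41 (edgeR adjusted p = 0.0756, over alternatives 3.35e-05 to 0.117). The block gave 7, 7 and 2 members in Ha vs Hb, La vs Lb and Ha vs La and 2 interactions, the same counts as without it.

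With counts in place of FPKM, which are not divided by length, the change of the GAPDHS share with age was 55.6 points in HZ (48.4 by FPKM) and 22.1 in LC (17.5), that of HK2 in LC was 16.8 (18.7), and that of HK3 in LC was −7.001 (−8.14). After scaling FPKM to a common sum per library, by factors of 2.90 to 3.41, 10 of 11 members kept the order of their group means, the exception being GAPDHS, whose means at 30 days tie. Depth limits GAPDHS and PGK2 at 30 days, the LDHB copy in LC, and SLC2A5, where few counts set the size of a fold change.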
